A study of Mus musculus with 6 samples.

Results

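The C/EBP and ATF4 stress pathway was examined in the hippocampus of neonatal mice raised in high oxygen. The 10 genes are the C/EBP transcription factors Cebpa, Cebpb, Cebpd and Cebpg, the stress factors Atf4 and Ddit3, and 4 genes that ATF4 is known to switch on, Trib3, Asns, Chac1 and Sesn2. They were chosen by name for their place in the pathway, with earlier results of these data known, and not by a cut on measured values. All 10 of 10 were found among the 24935 genes measured, and 9 of 10 were among the 17778 genes that passed a filter on low values (a mean normalized count of at least 10 over the 6 libraries). Trib3, with a mean of 8.44, did not pass.

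C57BL/6 mice of both sexes were kept with their dams in room air or in 85% oxygen (hyperoxia) from postnatal day 2 to 14, and the left hippocampus was taken at day 14. RNA was sequenced as polyA-selected, strand-specific libraries, 3 from air-exposed and 3 from hyperoxia-exposed mice, 1 library per mouse. The exposure models the oxygen given to preterm infants and reached the whole animal and its dam, so a direct action on the hippocampus and an indirect one cannot be told apart. Libraries are numbered 1 to 3 within a group as in the deposited columns, which do not name the animal, and every direction below follows the group named there. No measurement in the table checks those names, and if they were exchanged every sign below would turn. The study itself reports higher mRNA of Atf4, Jun and Eomes in hyperoxia, where the named columns gave lower values. For Cspg4 it reports lower mRNA, where the named columns gave higher values. The reason was not tested. Hyperoxia library 2 stood apart from the other hyperoxia libraries (38.7 on the second principal component, which held 19.5% of the variance, against −5.09 and −22.6), and its chi-square per gene against them was 31.4 and 47.2, where they differed by 15.1 from each other and air pairs by 6.54 to 10.5. Without it all 9 genes tested kept their direction, and Ddit3 joined the 4 genes that were lower.

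C/EBP proteins are leucine zipper transcription factors that bind DNA as dimers. C/EBPβ and C/EBPδ rise in inflammation and in stimulated neurons and glia, C/EBPα is prominent in myeloid cells, and C/EBPγ lacks an activation domain and pairs with ATF4. ATF4 is the main effector of the integrated stress response. When eIF2α is phosphorylated, general translation falls while translation of the Atf4 mRNA is favoured, so the mRNA level and the protein level of ATF4 need not move together, and the protein was not measured in these libraries. ATF4 then raises genes for amino acid supply, redox defence and, with CHOP (the product of Ddit3), cell death.

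The DNA letters that C/EBP and ATF4 dimers share are shown because they mark which of the genes carry a known response element near their start. Promoters of 250 bases before to 50 bases after the start, from RefSeq on build GRCm38.p6, were matched for 9 of the 10 genes, without Cebpd. The core of the C/EBP-ATF response element, TGATGNAA, was searched on both strands. It was found in Asns, Chac1 and Trib3, 3 of 9 genes (33.3%), against 4.51% of 27025 genes with a promoter. Capitals mark the core, and each line reads 5′ to 3′ on the strand of the gene.
Asns (chr6:7693214-7693243, minus strand): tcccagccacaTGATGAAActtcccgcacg
Chac1 (chr2:119351038-119351067, plus strand): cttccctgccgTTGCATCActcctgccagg
Trib3 (chr2:152344028-152344057, minus strand): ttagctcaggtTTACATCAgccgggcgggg
The core began 23 bases before the start in Asns and 193 before it in Chac1, and 15 bases after it in Trib3. Chac1 and Trib3 carry it on the opposite strand to Asns, so their capitals read as its reverse complement. Asns and Trib3 are textbook genes for this element, so its presence there is a description. The palindromes TTGCGCAA, a C/EBP site, and TGACGTCA, a cyclic AMP response element, were in 0 of the 9 genes. Their shares were 0.207% and 2.03% of all genes with a promoter.

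In the libraries named as hyperoxia 4 of the 9 genes tested were lower and 0 were higher. Cebpb fell by 55.2%, Sesn2 by 26.2%, Asns by 21.7% and Atf4 by 19.3%. The study reports Atf4 mRNA as higher in hyperoxia. For a C/EBP gene that it does not specify, its table and its discussion give higher mRNA and its results text lower. The count of 4 was 2 without air library 1, without air library 2 or without the mean-variance trend of the test, with Atf4 and Asns lost each time, and 1 gene (Chac1) was higher with length and GC trends removed. Across all genes tested 15.6% were lower and 14.9% were higher at the same threshold (limma, Benjamini-Hochberg adjusted p below 0.05), which is 30.5% in either direction. Every hyperoxia library lay below every air library for 7 of the 9 genes, and the reverse held for 0. Over all genes tested, 23.8% had every hyperoxia library lower and 22.3% every one higher, 46.1% in all. The median of the 9 log2 differences (hyperoxia minus air) was −0.29, and that of all genes tested was −0.0072. Genes of 1 pathway share their libraries and may share their control, so these counts describe the 9 genes and are not 9 independent observations.

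**Figure D1:**
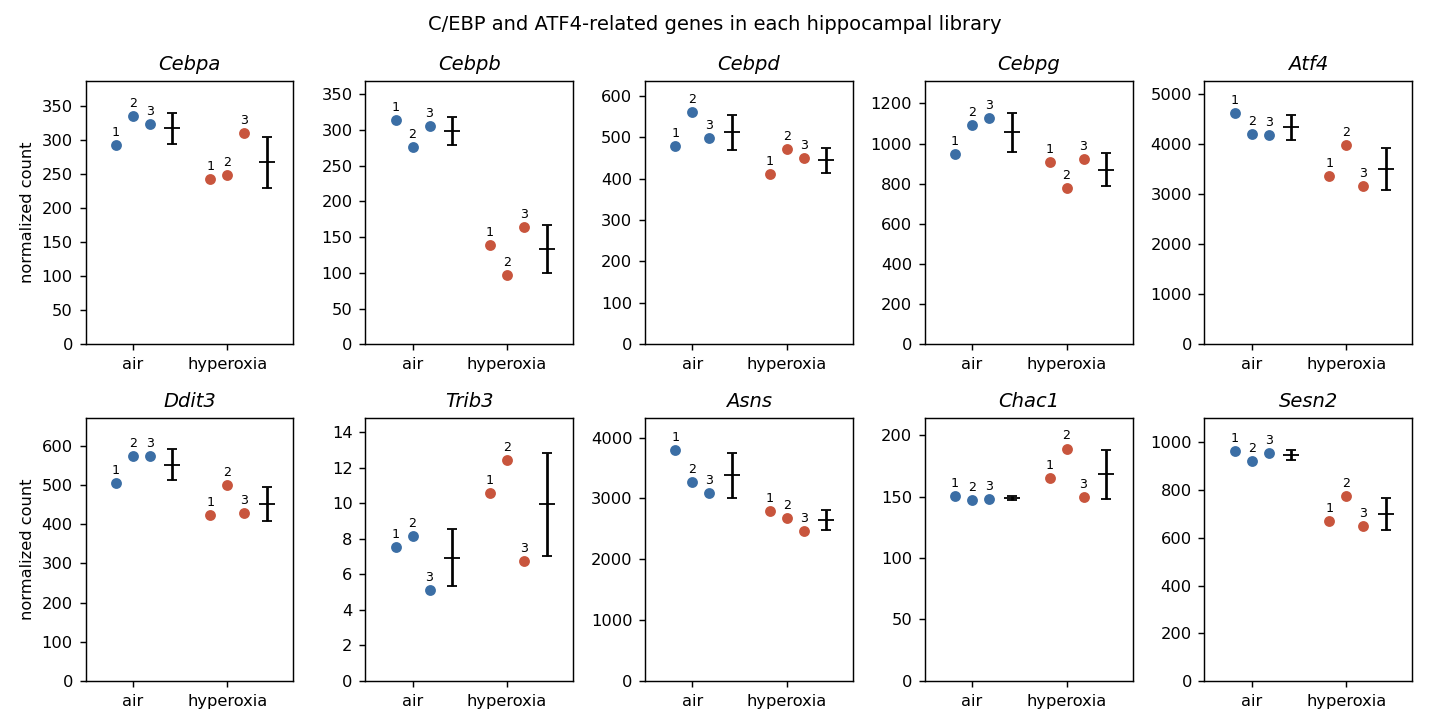
Normalized count (y axis, from 0) of each of the 10 genes in each library of air-exposed (blue) and hyperoxia-exposed (red) mice. Small numbers are library numbers, and the black dash and bar are the mean ± SD of 3 libraries. Cebpb in hyperoxia lay between 97.4 and 164, below all air libraries (277 to 314), while Trib3 and Chac1 had higher means in hyperoxia with overlapping libraries.

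Among the C/EBP factors 1 of 4 was lower and 0 were higher, where 15.6% of all genes tested were lower and 14.9% higher. Cebpb encodes C/EBPβ, an activator of inflammatory and memory-related genes, and is a single exon of 1504 bases at chr2:167688915-167690418 on the plus strand (ENSMUSG00000056501.3, GRCm38). In libraries 1, 2 and 3 of the air group its normalized counts were 314, 277 and 306, and in those of the hyperoxia group they were 139.7, 97.4 and 164 (the same order is kept for the genes that follow). The groups did not overlap, and the highest hyperoxia library stood well under the lowest air library. The means were 299 ± 19.4 in air and 134 ± 33.8 in hyperoxia (SD, n = 3), a log2 difference of −1.18 (SE 0.18, 95% interval −1.59 to −0.78, limma adjusted p = 0.00182). Only 0.967% of the genes tested had a lower difference, and Cebpb was lower at the threshold under all 16 other settings of the analysis (log2 differences from −1.35 to −0.97).

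Tmem189, which encodes a membrane protein, overlaps Cebpb on the opposite strand. Its normalized count was 1609 ± 78.3 in air and 1308 ± 176 in hyperoxia (log2 difference −0.31, SE 0.10, limma adjusted p = 0.0447), a call that was lost when any 1 library but hyperoxia library 2 was left out (−0.34 to −0.22, limma adjusted p from 0.0769 to 0.157). The sources used here do not say whether reads were counted by strand, so reads of the pair cannot be told apart where they overlap. The immediate early genes, which are switched on by neuronal activity and handling, also moved with Cebpb: 9 of 18 were lower and 1 was higher, with summed normalized counts of 31266 to 36857 in air and 21595 to 24804 in hyperoxia. Hyperoxia library 2 was the lowest for that sum and for Cebpb. The part of the immediate early genes in the Cebpb result was not tested. Jun, Arc and Egr1 were among those lower here. The study reports Jun mRNA as higher in hyperoxia. For Arc and Egr1 its table and its discussion give higher and its results text lower.

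Cebpa encodes C/EBPα and lies at chr7:35119293-35121928, plus strand (ENSMUSG00000034957.10). The libraries held normalized counts of 292, 336 and 323 in air and 243, 248 and 311 in hyperoxia, and hyperoxia library 3 lay within the air range. The log2 difference was −0.25 (SE 0.12, 95% interval −0.53 to 0.03, limma adjusted p = 0.150), with means of 317 ± 22.6 and 267 ± 37.8. Without hyperoxia library 3 it passed the threshold at −0.37 (limma adjusted p = 0.0425). Of the markers of microglia, myeloid cells of the brain, 3 of 14 were higher and 1 was lower, with summed normalized counts of 16311 to 16987 in air and 16306 to 18875 in hyperoxia.

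Cebpd encodes C/EBPδ, an acute phase factor, and lies at chr16:15887286-15891031, plus strand (ENSMUSG00000071637.5). It had normalized counts of 478, 561 and 498 in air and 412, 472 and 451 in hyperoxia. No library crossed over, but the gap between the groups was small next to the spread within each. The log2 difference of −0.20 (SE 0.10, 95% interval −0.42 to 0.02) did not pass the test (limma adjusted p = 0.151). Spidr, a DNA repair gene on the opposite strand that overlaps it, had a log2 difference of −0.02 (limma adjusted p = 0.932).

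Cebpg encodes C/EBPγ and lies at chr7:35046422-35056573, minus strand (ENSMUSG00000056216.9). Normalized counts were 946, 1093 and 1128 in air and 909.6, 777 and 924 in hyperoxia, with no overlap but air library 1 close to hyperoxia library 3. The log2 difference was −0.28 (SE 0.10, 95% interval −0.50 to −0.05, limma adjusted p = 0.0612), just outside the threshold. It passed when trends on transcript length and GC content were removed from each library (−0.35, limma adjusted p = 0.00856) and without hyperoxia library 3 (−0.32, limma adjusted p = 0.0482).

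The balance among the C/EBP factors was compared within each library, in ratios chosen after the values were seen. Cebpb stood to Cebpa as 1.07, 0.824 and 0.946 in air and as 0.575, 0.393 and 0.528 in hyperoxia. Cebpb to Cebpd was 0.588 ± 0.0841 in air and 0.303 ± 0.0848 in hyperoxia, and Cebpb to Cebpg was 0.331, 0.253 and 0.271 in air and 0.154, 0.125 and 0.178 in hyperoxia. None of these ratios overlapped between groups, and their log2 differences were −0.94, −0.99 and −0.91. The ratios restate the fall of Cebpb on the scale of its relatives, and no test is given for them.

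**Figure D2:**
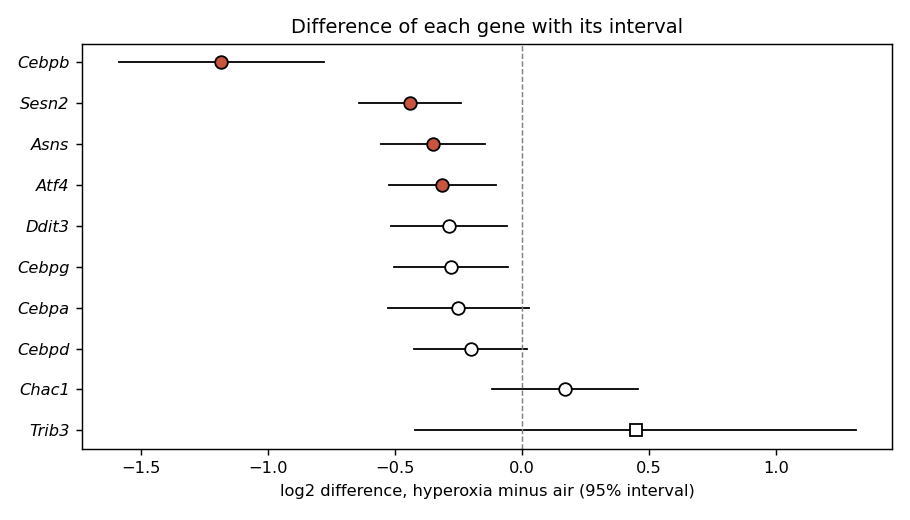
Log2 difference (x axis, hyperoxia minus air) of each of the 10 genes with its 95% interval. Filled red points passed the threshold (limma adjusted p below 0.05), open points did not, and the square is Trib3 from the fit without a filter on low values. Cebpb stood apart at −1.18, Sesn2, Asns and Atf4 lay between −0.44 and −0.31, and Chac1 and Trib3 lay above 0 with intervals that include it.

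Atf4 itself lies at chr15:80255184-80257541, plus strand (ENSMUSG00000042406.7). The air libraries had 4623, 4212 and 4185 normalized counts and the hyperoxia libraries 3359.9, 3982 and 3166. Hyperoxia library 2 came near the air libraries, while the other two lay well below them. The means were 4339.8 ± 246 and 3503 ± 426 (SD, n = 3), a log2 difference of −0.31 (SE 0.09, 95% interval −0.52 to −0.10, limma adjusted p = 0.0307). edgeR and DESeq2 on the recovered reads gave adjusted p of 0.0360 and 0.0188, and by these tools the same 4 genes of the 9 were lower and 0 were higher, against 30.9% and 31.6% of all genes called in either direction.

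The Atf4 call was close to the threshold and moved with the choice of libraries. It was lost without air library 1 (−0.27, limma adjusted p = 0.131), air library 2 (−0.34, 0.0813), air library 3 (−0.34, 0.0686), hyperoxia library 1 (−0.29, 0.105) and hyperoxia library 3 (−0.25, 0.0714). It was kept without hyperoxia library 2, at −0.41 (limma adjusted p = 0.000704), and lost when limma was fitted without its mean-variance trend (adjusted p = 0.0855). With length and GC trends removed the difference was −0.19 (limma adjusted p = 0.0420), a value more than 1.5 times smaller. By the column names the direction was lower throughout, opposite to the higher Atf4 mRNA that the study reports. Of all genes tested, 20.3% had a lower difference than Atf4.

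Ddit3 encodes CHOP, a C/EBP family protein that ATF4 induces and that pairs with C/EBP factors. It lies at chr10:127290774-127296288, plus strand (ENSMUSG00000025408.15). Normalized counts of 506, 574 and 574 were found in air and of 424, 500.4 and 429.5 in hyperoxia, where library 2 reached almost to air library 1. The log2 difference of −0.29 (SE 0.10, 95% interval −0.52 to −0.06) lay just outside the threshold (limma adjusted p = 0.0569). It passed with only genes of a mean of at least 50 tested (limma adjusted p = 0.0494) and without hyperoxia library 2 (−0.37, limma adjusted p = 0.00841). Mars, the methionyl-tRNA synthetase gene on the opposite strand that overlaps it, had a log2 difference of 0.08 (limma adjusted p = 0.490), and the reference also holds a second Ddit3 entry on the same strand that is not a row of the table, so how reads were shared there is unknown.

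Of the 3 ATF4 target genes tested, 2 were lower, against 15.6% of all genes tested. Sesn2 encodes sestrin 2, which restrains mTORC1 signalling when leucine is short and limits oxidative damage, and lies at chr4:132492032-132510501, minus strand (ENSMUSG00000028893.8). Its normalized counts were 963, 922 and 955 in air and 670.04, 776 and 651 in hyperoxia. The air libraries lay close together and all hyperoxia libraries were clearly under them. The means were 947 ± 21.9 and 699 ± 67.2 (SD, n = 3), a log2 difference of −0.44 (SE 0.09, 95% interval −0.64 to −0.24, limma adjusted p = 0.00596), and Sesn2 was lower at the threshold under all 16 other settings (−0.52 to −0.36).

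Asns encodes asparagine synthetase and lies at chr6:7675169-7693254, minus strand, in 13 exons (ENSMUSG00000029752.12). Its promoter holds the element printed above. Its normalized counts were 3797, 3267 and 3085 in air and 2795, 2681 and 2468 in hyperoxia. The groups did not overlap, and air library 1 was the highest. The means were 3383 ± 369.9 and 2648 ± 166, a log2 difference of −0.35 (SE 0.09, 95% interval −0.55 to −0.15, limma adjusted p = 0.0179). The call was lost without air library 1 (−0.26, limma adjusted p = 0.0806), without air library 2 (−0.37, limma adjusted p = 0.0553) and without the trend (limma adjusted p = 0.0605).

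Chac1 encodes an enzyme that degrades glutathione, and lies at chr2:119351229-119354381, plus strand (ENSMUSG00000027313.3). Its normalized counts were 151, 148 and 148 in air and 165, 189 and 149.6 in hyperoxia. The air libraries were nearly equal, the hyperoxia libraries spread upward, and the groups overlapped. The log2 difference was 0.17 (SE 0.13, 95% interval −0.12 to 0.46, limma adjusted p = 0.343). With length and GC trends removed it passed the threshold at 0.32 (limma adjusted p = 0.0466).

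Trib3 encodes a pseudokinase that ATF4 and CHOP induce and that damps ATF4 in return. It lies at chr2:152337422-152344032, minus strand (ENSMUSG00000032715.9). It was nearly silent, with 8, 8 and 5 reads in air and 12, 11 and 7 in hyperoxia, or normalized counts of 6.94 ± 1.59 and 9.94 ± 2.91. Without the filter on low values its log2 difference was 0.45 (SE 0.40, 95% interval −0.42 to 1.31, limma adjusted p = 0.465). A difference was not detectable at this depth.

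The ratios of the target genes to Chac1, the tested target with the higher mean in hyperoxia, were also chosen after the values were seen. Within libraries the ratio of Asns to Chac1 was 25.2, 22.1 and 20.9 in air and 16.9, 14.2 and 16.5 in hyperoxia. The ratio of Sesn2 to Chac1 was 6.39, 6.25 and 6.46 in air and 4.05, 4.10 and 4.35 in hyperoxia. Neither overlapped between groups (log2 differences −0.52 and −0.61), and no test is given for them either. The interval of Chac1 itself includes 0.

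**Figure D3:**
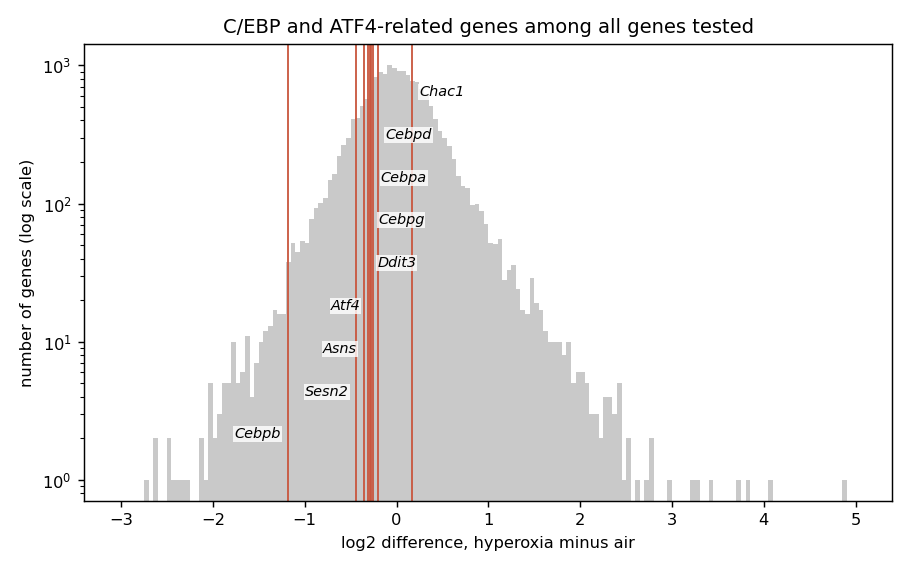
Number of genes (y axis, log scale) at each log2 difference (x axis, hyperoxia minus air) for the 17778 genes tested, with a red line for each of the 9 genes tested. Cebpb at −1.18 lies in the lower tail, Chac1 lies to the right of 0, and the other lines lie between −0.44 and −0.20.

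Per kilobase of exon, Atf4 had the highest level of the 10 genes in air, with 1840 ± 104 normalized counts per kb, followed by Asns at 1237 ± 135. Ddit3 followed at 322 ± 23.0, then Sesn2 at 272 ± 6.30, Cebpb at 199 ± 12.9 and Cebpg at 188 ± 17.1. Cebpb and Cebpg overlapped in air and were not separated by their spread. Cebpd (137 ± 11.5), Cebpa (120 ± 8.58), Chac1 (90.8 ± 1.06) and Trib3 (3.26 ± 0.748) came last, with neighbours that did not overlap. In hyperoxia Cebpb, at 88.9 per kb, lay below Cebpg (155), Cebpd (119), Cebpa (101) and Chac1 (103), so the C/EBP factor with the highest mean per kb in air had the lowest in hyperoxia. Its spread in hyperoxia (SD 22.4 per kb) was wider than its distance from Cebpa and Chac1 there, so those neighbours were not separated.

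The hyperoxia libraries did not rank the 10 genes alike. Library 2 was the highest of the hyperoxia libraries for 6 genes (Cebpd, Atf4, Ddit3, Trib3, Chac1 and Sesn2) and the lowest for Cebpb and Cebpg. Library 3 was the lowest for 5 genes (Atf4, Trib3, Asns, Chac1 and Sesn2) and the highest for Cebpa, Cebpb and Cebpg. Library 2 also had the highest sum of thalamic markers (11755, against 8064 and 8162 in the other hyperoxia libraries and 5863 to 6479 in air), and library 3 the highest sum of choroid plexus markers (16062, against 4200 to 6392 in the other 5 libraries). The part of neighbouring tissue in these levels was not tested.

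The genes closest in profile were sought for Atf4, Cebpb and Ddit3 among 14930 other genes, by the root mean square difference of centred log2 values over the 6 libraries. Closest to Atf4 were Ppp2r5d (0.0198), Tufm (0.0227) and Hint2 (0.0239), a phosphatase subunit and a pair of mitochondrial proteins, and the closest of the other 8 genes tested was Sesn2 (0.0773, rank 510). Closest to Cebpb were Apex1 (0.0792), a DNA repair endonuclease, Thbs4 (0.0882), a matrix protein, and Iqcd (0.0966), with Sesn2 again the closest of the set (0.478, rank 1743). Closest to Ddit3 were Magix (0.0228), Cenpv (0.0264) and Rad1 (0.0342), with Cebpd the closest of the set (0.0812, rank 273). The measure is not scaled, so it follows the size of a change as well as its shape over the libraries.

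The rest of the pathway was read from 8 lists, with 111 genes tested of 117 in the table. Of these 25 were higher and 13 were lower, 34.2% against 30.5% of all genes, with a median log2 difference of 0.05. The higher count fell by over 1.5 times without any 1 air library or hyperoxia library 1, and the lower count without air library 1. They were 13 higher and 8 lower without air library 1, and 11 and 9 without air library 2. Without air library 3 they were 16 and 11, as without hyperoxia library 1, and without hyperoxia library 2 they were 32 and 19. Without the trend they were 15 and 11, and with length and GC trends removed 26 and 20. Among the partners of C/EBP and ATF factors 3 of 15 were higher and 1 was lower. Atf5, a factor translated under stress as Atf4 is, was lower (690.3 ± 35.9 in air, 517 ± 49.3 in hyperoxia, log2 difference −0.42, SE 0.10, limma adjusted p = 0.0110). Hlf, a clock-linked zipper factor, was higher (0.63, limma adjusted p = 0.0127), as was Atf2 (0.28, limma adjusted p = 0.0301). Without air library 1, Atf5 (−0.39, limma adjusted p = 0.0566) and Hlf (0.60, limma adjusted p = 0.0595) lost their calls, and without air library 2 so did Hlf (0.60, limma adjusted p = 0.0572). Atf2 lost it without any 1 library but hyperoxia library 2 (0.22 to 0.31, limma adjusted p from 0.0533 to 0.120) and with length and GC trends removed (0.09).

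Upstream of Atf4, 4 of 11 genes for eIF2α kinases, phosphatase subunits and their partners were higher and 1 was lower. Those higher were not kinases alone, and took in a phosphatase subunit and a partner. Eif2ak2, the kinase of double-stranded RNA (PKR), rose from 159.7 ± 9.46 to 227 ± 22.6 (log2 difference 0.50, limma adjusted p = 0.0129). Eif2ak4, the kinase of amino acid shortage (GCN2), was higher by 0.33 (limma adjusted p = 0.0288). Eif2ak1, the kinase of haem shortage (HRI), was lower by 20.3% (−0.33, limma adjusted p = 0.0138). Eif2ak1 lost its call without air library 1 (−0.27, limma adjusted p = 0.0729) and air library 2 (−0.33, limma adjusted p = 0.0550), Eif2ak2 without air library 2 (0.47, limma adjusted p = 0.0592), and Eif2ak4 without any 1 library but hyperoxia library 2 (0.25 to 0.37, limma adjusted p from 0.0536 to 0.121). The 4 higher genes of the list were 1 without air library 1, 0 without air library 2, 2 without air library 3, 1 without hyperoxia library 1 and 2 without hyperoxia library 3. These are mRNA levels, and phosphorylation of eIF2α was not measured in these libraries.

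Amino acid transport was the list with the most genes higher, 6 of 11 with 0 lower and a median log2 difference of 0.33. Slc7a11, the cystine transporter that feeds glutathione synthesis, rose from 1098 ± 56.8 to 1798 ± 234 (0.70, SE 0.10, limma adjusted p = 0.00156). Slc7a3, a transporter of arginine and lysine, rose from 102 ± 16.6 to 213 ± 58.0 (1.03, SE 0.22, limma adjusted p = 0.00721). Slc7a11 holds the element at chr3:50443661-50443690 and again at chr3:50443642-50443671, both on build GRCm38.p6 and read on the minus strand.
Slc7a11, first: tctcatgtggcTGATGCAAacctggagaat
Slc7a11, second: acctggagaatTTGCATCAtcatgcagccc
They are shown because Slc7a11 was higher while Asns, with the same core, was lower.

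Amino acid synthesis had 1 of 13 genes higher and 1 lower. Aldh1l2, a mitochondrial folate enzyme, was higher (0.47, limma adjusted p = 0.0357), and Shmt2, which makes glycine in mitochondria, was lower (−0.32, limma adjusted p = 0.0359). Both lost their calls when any 1 library but hyperoxia library 2 was left out (0.35 to 0.56 for Aldh1l2 and −0.36 to −0.24 for Shmt2, limma adjusted p from 0.0503 to 0.137). Of the aminoacyl-tRNA synthetases, which charge tRNAs, 3 of 14 were higher and 0 were lower, among them Lars (0.36, limma adjusted p = 0.00658) and Eprs (0.29, limma adjusted p = 0.0120). Eprs lost its call without air library 1 (0.28, limma adjusted p = 0.0586), without air library 2 (0.29, limma adjusted p = 0.0535) and with length and GC trends removed (0.07, limma adjusted p = 0.458).

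Stress effectors downstream of ATF4 moved both ways, 4 of 19 higher and 3 lower, with a median near 0 (−0.0010). Sesn3, a relative of Sesn2 that FoxO factors induce, rose by 54.2% (0.62, limma adjusted p = 0.00275), opposite to Sesn2. Trib2, a relative of Trib3, was higher (0.48, limma adjusted p = 0.00181). Stc2, a secreted glycoprotein, fell from 461 ± 31.8 to 266 ± 33.7 (−0.80, limma adjusted p = 0.00156). Jdp2, a repressor that competes at zipper sites, fell from 1236 ± 56.9 to 802 ± 45.0 (−0.62, limma adjusted p = 0.000980), and it too holds the element, at chr12:85599372-85599401 on the plus strand.
Jdp2: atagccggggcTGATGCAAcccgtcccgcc
Over the 8 lists 15 of 86 genes with a promoter (17.4%) held the element. Of these 15, 4 were higher (Slc7a11, Slc1a4, Yars and Vldlr), 1 was lower and the rest were not called. In either direction 34.2% of the list genes tested and 30.5% of all genes tested were called. Several genes on the lists are known as ATF4 targets through this element, so the share of 17.4% is a description.

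**Figure D4:**
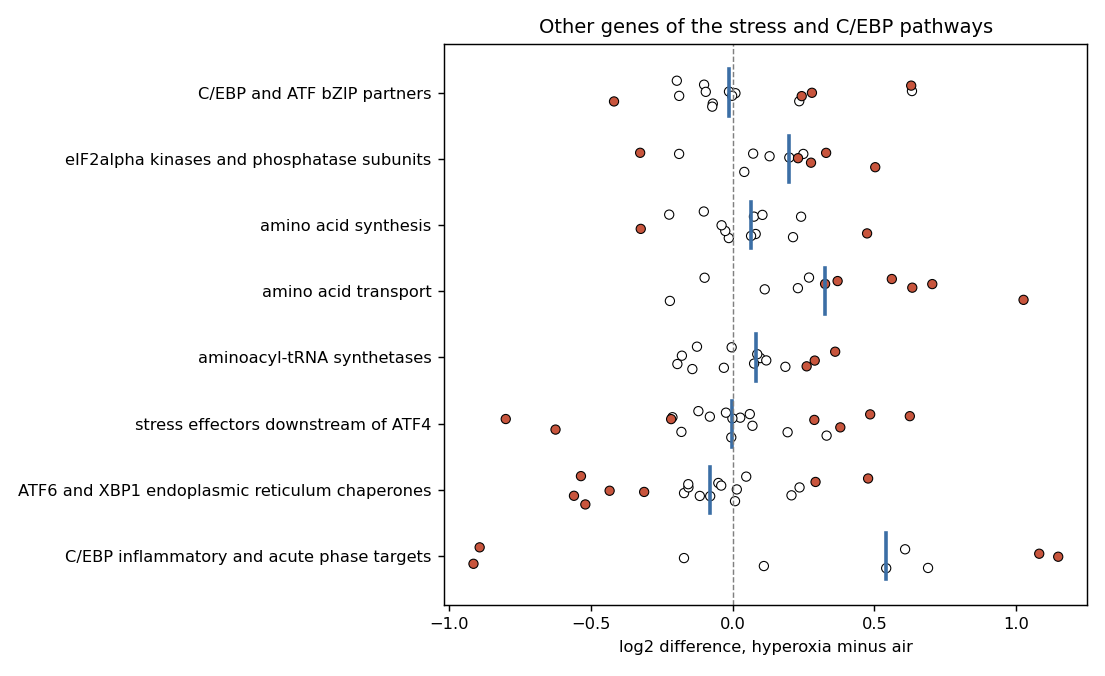
Log2 difference (x axis, hyperoxia minus air) of each gene tested in the 8 pathway lists (y axis). Filled red points passed the threshold (limma adjusted p below 0.05), open points did not, and blue bars are list medians. Amino acid transport had 6 filled points, all to the right of 0, while the other lists with more than 3 filled points had them on both sides.

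Chaperones and other genes tied to the ATF6 and XBP1 branches of the unfolded protein response of the endoplasmic reticulum had 2 of 19 higher and 5 lower. The list takes in factors that are not chaperones, among them Xbp1, Atf6b and Ern1. Manf, a secreted chaperone and neurotrophic factor, fell from 1695 ± 105 to 1169 ± 42.9 (−0.53, limma adjusted p = 0.00152). Syvn1, a ubiquitin ligase of protein quality control, was lower by 32.1% (−0.56, limma adjusted p = 0.00178). Edem1 (0.48, limma adjusted p = 0.0104) and Canx (0.29, limma adjusted p = 0.0135), which handle misfolded and newly made glycoproteins, were higher. Edem1 lost its call without air library 2 (0.44, limma adjusted p = 0.0539), and Canx without air library 1 (0.26, limma adjusted p = 0.0703) and air library 3 (0.29, limma adjusted p = 0.0585). Without hyperoxia library 2 the lower genes of the list were 8, and those among the stress effectors were 5.

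Inflammatory and acute phase genes known as C/EBP targets had 9 genes tested, of which 2 were higher and 2 lower. Their median log2 difference was 0.54. Of 14 list genes in the table only these 9 passed the filter on low values. The summed normalized counts of the 14 were lower in hyperoxia (3730 to 4299 in air and 2022 to 2842 in hyperoxia). Serpina3n, an acute phase protease inhibitor, fell from 2922 ± 259 to 1566 ± 301 (−0.91, SE 0.13, limma adjusted p = 0.00151). Ptgs2 (COX-2), which is also induced by neuronal activity, fell from 760 ± 44.0 to 416 ± 92.4 (−0.89, SE 0.15, limma adjusted p = 0.00300), and its promoter holds the C/EBP palindrome, shown here in capitals, at chr1:150099951-150099980 on the plus strand. Of the 86 list genes with a promoter 2 held this palindrome, and the other, Canx, was higher.
Ptgs2: cgctgcggttcTTGCGCAActcactgaagc
Socs3, a brake on cytokine signalling, rose from 61.2 ± 4.20 to 137 ± 11.5 (1.15, SE 0.15, limma adjusted p = 0.000980), and Nos2 rose from 32.8 ± 15.7 to 66.6 ± 18.9 (1.08, limma adjusted p = 0.0431). The Nos2 call was lost with edgeR (adjusted p = 0.0503), without the trend (limma adjusted p = 0.0906) and with quantile scaling (limma adjusted p = 0.0519). It was also lost without air library 1, air library 3, hyperoxia library 1 or hyperoxia library 2 (0.70 to 1.17, limma adjusted p from 0.0768 to 0.122). Of the 24 genes named from the 8 lists 12 passed under all 16 other settings, namely Slc7a11, Slc7a3, Lars, Stc2, Jdp2, Trib2, Sesn3, Manf, Syvn1, Serpina3n, Ptgs2 and Socs3.

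**Figure D5:**
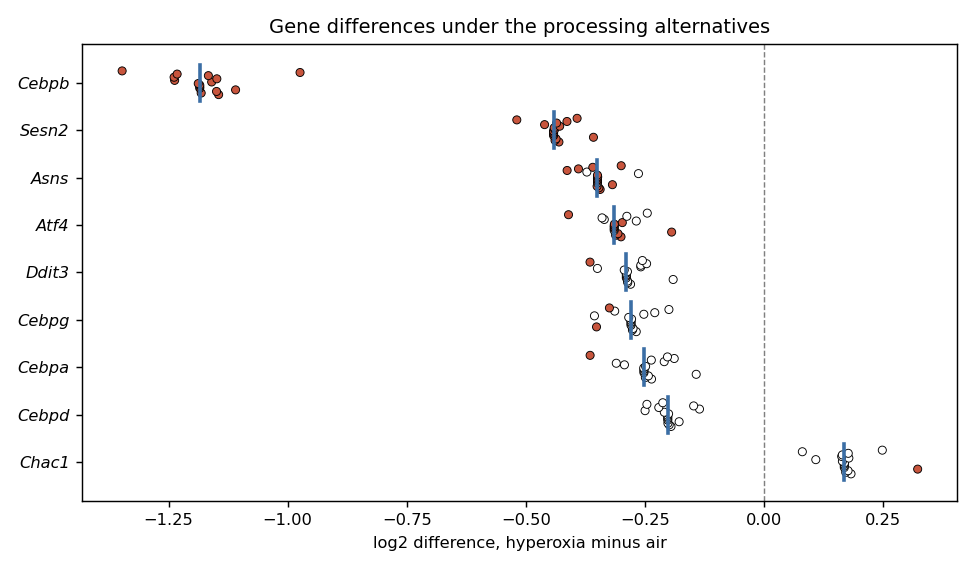
Log2 difference (x axis, hyperoxia minus air) of the 9 genes tested under the main analysis (blue bar) and 16 other settings. Filled red points had an adjusted p below 0.05, and open points did not. Cebpb (−1.35 to −0.97) and Sesn2 (−0.52 to −0.36) were filled throughout, while Atf4, Asns, Cebpg, Ddit3, Cebpa and Chac1 had both kinds of point.

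The libraries held 30384052 to 38746972 reads on genes, and CA1, CA3 and dentate granule cell markers were present in all 6, with no marker list holding a gene at 0 in every library. Markers of neighbouring tissue differed between groups: those of thalamus were higher in 5 of 8 (summed normalized counts 5863 to 6479 in air and 8064 to 11755 in hyperoxia), and those of neocortex in 3 of 7, with 1 lower (8688 to 9179 and 10339 to 13365). Endothelial markers were higher in 6 of 11 and lower in 2 (10891 to 11307 and 12523 to 13739), and astrocyte markers higher in 4 of 11 and lower in 2 (210811 to 221603 and 248722 to 265660). Oligodendrocyte markers were lower in 8 of 9 (summed normalized counts 218088 to 331627 in air and 149657 to 182729 in hyperoxia), dentate granule cell markers in 5 of 8 (23544 to 24129 and 15557 to 21225, and 3 of 8 without any 1 air library or hyperoxia library 1), and border macrophage markers were higher in 4 of 6 (321 to 427 and 829 to 868). In bulk tissue fewer cells of a type and less RNA per cell cannot be told apart, and the part of these shifts in the results above was not tested.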

How the data were processed

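The authors deposited a table of signal values, read counts that they normalized with DESeq2 to 1 size factor per library. Per the labels' processing notes, FastQC, STAR 2.5.3a and HTSeq were used. No genome build, annotation or strand setting of the counting is named in the sources used here. Positions and lengths come from GENCODE M21 (GRCm38), which held 99.7% of the table's gene IDs. A second deposited file holds the authors' own comparison (means, fold changes, errors and p-values) and was not used. The word oil stands in its name for both groups. Neither the labels nor the study's methods mention oil, so whether any animal received it is unknown. Values were whole reads after scaling (within 0.01), so the reads could be recovered.

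Genes with a mean of at least 10 were compared with limma 3.58.1 (R 4.3.3) on log2(value + 1) with a mean-variance trend and Benjamini-Hochberg adjustment over 17778 genes at a threshold of 0.05. The pseudocount understates changes of low genes. The alternatives were the quasi-likelihood test of edgeR 4.0.16 and DESeq2 1.42.0, both on recovered reads, a mean of at least 50 or no filter, pseudocounts of 0.5 and 5, no trend, quantile and TMM scaling, a length and GC correction (mgcv 1.9.3) and leaving out each library. Fits were tested on simulated data. Columns name the group but not the animal.

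The genes and lists were chosen with earlier results of these data known. Named beside the 10 genes are the 2 largest rises and 2 largest falls called in each list, and the 3 genes nearest in profile to Atf4, Cebpb and Ddit3. Genes named as holding the element, overlapping genes and ratios were added after their values were seen.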

Additional observations from a re-analysis of the deposited data

How the results depend on the processing

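Over 16 alternatives, 129 of 144 differences of the 9 genes kept their direction and side of the threshold, 9 fell below it, 6 rose past it and 0 reversed. Without the trend, Atf4 (−0.31, limma adjusted p = 0.0855) and Asns (−0.35, limma adjusted p = 0.0605) lost their calls, 2 genes of the set were lower, and 15 pathway genes were higher instead of 25. With the length and GC correction, Cebpg (−0.35) and Chac1 (0.32) passed, 1 gene of the set was higher, and 20 pathway genes were lower instead of 13. With a mean of at least 50, Ddit3 (−0.29) passed. Leaving out 1 library gave −0.37 to −0.19 for Cebpa, −0.36 to −0.20 for Cebpg, −0.41 to −0.25 for Atf4, −0.37 to −0.25 for Ddit3 and −0.41 to −0.26 for Asns. It left 2 to 5 genes of the set lower (2 without air library 1 or air library 2), 11 to 32 pathway genes higher (13 without air library 1, 11 without air library 2, 16 without air library 3 or hyperoxia library 1), and 8 to 19 lower (8 without air library 1). Over all genes the calls were 5425, and ran from 3048 without air library 1 and 3087 without air library 2 to 7756 without hyperoxia library 2, with 3378 without hyperoxia library 1. The cause was not tested. Counts of calls within single lists moved by over 1.5 times in 126 of 832 cases.

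With 3 libraries a group an exact permutation test cannot go below 0.1. No paired analysis was possible because the labels give the animals of the groups no shared number and the columns do not name the animal. Trib3 is limited by depth.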
